A study of Mus musculus with 24 samples.

Results

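Fh1, Mdh1, Mdh2, Cs, Idh1, Idh2, Ogdh, Sucla2 and Suclg2 encode fumarase and 8 other enzymes or subunits of the tricarboxylic acid cycle or its cytosolic counterparts. They were chosen as the rows of a liver count table whose gene symbol equals one of these names, and all 9 were found among 22355 genes. All 9 also passed the filter on low counts, which left 11508 genes for testing. A few further subunits of the cycle are described after these 9, and others, such as those of succinate dehydrogenase, were not analysed here.

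The livers came from mice with diet-induced obesity, 8 mice in each of 3 groups and 1 library per mouse. The first group had IUB288 for 4 d and gave its livers 4 h after its last dose. The next group had the same course, and its livers date from 22 h after the last dose. The vehicle group was likewise sampled 22 h after its last injection. IUB288 is an agonist of the glucagon receptor known by its code name. The labels give no strain, sex, age, diet composition or dose. No vehicle liver was taken at 4 h, so that at 4 h the drug and the time since an injection cannot be told apart.

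The tricarboxylic acid cycle runs in the mitochondrial matrix and oxidises acetyl groups to carbon dioxide, passing electrons to the respiratory chain. In liver it also feeds synthesis. Malate leaves the mitochondria for glucose production and citrate leaves for fatty acid synthesis, while carbon from amino acids and the urea cycle enters at fumarate and other intermediates. Glucagon acts on hepatocytes through cyclic AMP, which activates CREB, a factor that binds the cyclic AMP response element of target genes.

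Libraries held between 24.7 and 35.2 M counts at 4 h, 25.8 and 35.2 M at 22 h, and 14 and 44.1 M in vehicle. Levels are given below as scaled CPM, each gene's counts per M counts of the library after TMM scaling. The hepatocyte marker Alb was at 45131 CPM or more at 4 h, 34806 or more at 22 h and 51949 or more in vehicle. Vehicle replicate 1 stood apart. Ucp1, the uncoupling protein of brown fat, was at 1388 CPM in it and at no more than 0.576 CPM in any other library. The summed level of 11 brown fat markers was 2116 CPM in vehicle replicate 1 and at most 149 CPM elsewhere. Not all of them stood far above every other library there. Elovl3 was at 49.7 CPM in vehicle replicate 1, at up to 42.2 CPM in the other 7 vehicle livers and at up to 133 CPM at 4 h. Cpt1b was at 0.308 CPM in vehicle replicate 1, at up to 0.216 CPM in the other 7 vehicle livers and at up to 0.294 CPM at 4 h. For 5 general fat markers the sums were 2544 CPM and at most 48.5 CPM, and for 6 skeletal muscle markers 165 CPM and at most 2.39 CPM. The results for the 9 genes are therefore given with and without it, and other genes mainly where leaving it out changed a call. Hepatocyte marker sums ran from 67425 to 89217 CPM at 4 h, 57276 to 82639 CPM at 22 h and 71038 to 112745 CPM in vehicle. Of these 7 markers 5 were called lower and 1 higher than in vehicle at 4 h, and 4 lower and 2 higher at 22 h. The median log2 fold changes of the 7 were -0.38 and -0.57. Sums of 6 stellate cell markers did not overlap between IUB288 and vehicle livers, with 368 to 610 CPM at 4 h, 201 to 578 CPM at 22 h and 641 to 1101 CPM in vehicle. Sums of the general fat markers did not overlap between these either, with 13.2 to 30.2 CPM at 4 h, 9.40 to 20.7 CPM at 22 h and 30.3 to 2544 CPM in vehicle. Outside vehicle replicate 1 these sums were mostly Fabp4, at up to 41.1 CPM, with Cfd at up to 7.33 CPM. Adipoq, Plin1 and Lep were at no more than 0.0784, 0.107 and 0.225 CPM in those libraries. Kupffer, endothelial, cholangiocyte and erythroid marker sums overlapped between the groups, but some of their genes were called lower than in vehicle. Of all genes tested 22.5% were called lower and 21.7% higher at 4 h, and 19.2% and 17.6% at 22 h. Of 5 erythroid markers 4 were lower and 1 higher at each time (median log2 fold change of the 5 -1.17 at 4 h and -2.20 at 22 h). Of 6 endothelial markers 2 were lower at 4 h and 6 at 22 h (medians -0.41 and -0.73), and of 6 Kupffer cell markers 1 and 4 (medians -0.53 and -1.14). Of 5 cholangiocyte markers 2 were lower at each time (medians -0.57 and -0.40). The part of these marker levels in the results below was not tested, and in whole liver fewer cells of a type and less RNA per cell cannot be told apart.

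Vehicle replicate 1 had higher levels of 7 of the 9 cycle genes than the mean of the other 7 vehicle livers. The difference in log2 CPM was 2.08 for Cs, 2.02 for Ogdh, 1.58 for Sucla2 and 1.43 for Mdh2. It was 0.74 for Idh2, 0.70 for Fh1 and 0.06 for Mdh1, but -0.20 for Idh1 and -0.43 for Suclg2. The median of all genes tested was 0.02. A vehicle mean over 8 livers thus holds 1 library in which Cs and Ogdh, at 839 and 1088 CPM, were more than any of the other 23 livers showed.

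**Figure D1:**
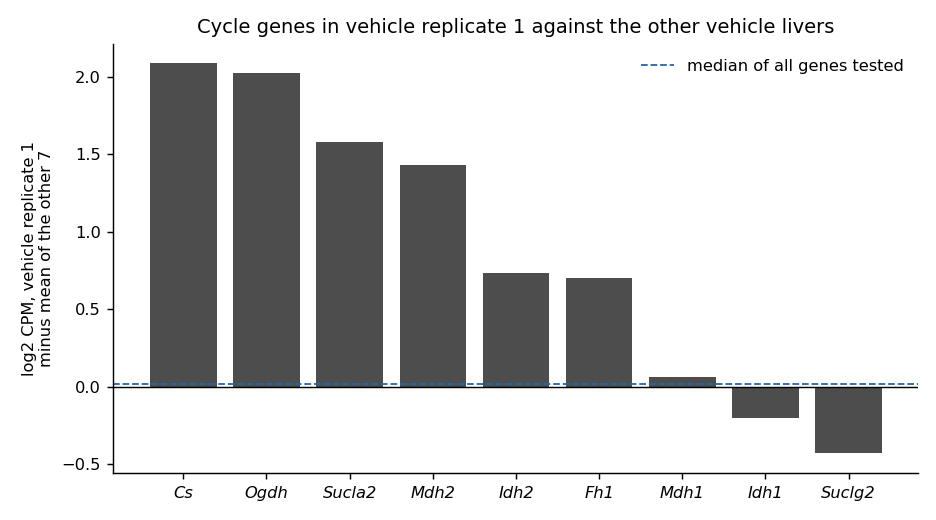
Bars show the log2 CPM of each of the 9 genes in vehicle replicate 1 minus the mean log2 CPM of the other 7 vehicle livers, sorted by size, and the dashed line shows the same for the median of all 11508 genes tested (0.02). Cs and Ogdh stand about 2.08 and 2.02 log2 units above the other vehicle livers, while Idh1 and Suclg2 lie below them.

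Promoter windows are shown for 4 of the genes, since the cyclic AMP response element is the binding site through which glucagon's signal reaches many target genes. The windows shown are those of the 3 of the 9 genes in which that element or its first 6 letters were found, and of Cs, which had neither. Each runs from 250 bases before to 50 bases after a start site in RefSeq (build GRCm38.p6), read 5′ to 3′ on the gene's strand, with position 1 at the start site. Capitals mark the full element TGACGTCA or its first 6 letters, TGACGT, as read on the strand shown, and a window without capitals holds neither. Fh1, the gene with the largest rise, lies on the minus strand and its window is chr1:175625586-175625885. Mdh2, the next enzyme of the cycle, has its window at chr5:135778399-135778698 on the plus strand. The Ogdh window, 1 of 6 listed for that gene, is chr11:6291409-6291708 on the plus strand. Cs, which was lower after IUB288, has its window at chr10:128337477-128337776 on the plus strand.
Fh1: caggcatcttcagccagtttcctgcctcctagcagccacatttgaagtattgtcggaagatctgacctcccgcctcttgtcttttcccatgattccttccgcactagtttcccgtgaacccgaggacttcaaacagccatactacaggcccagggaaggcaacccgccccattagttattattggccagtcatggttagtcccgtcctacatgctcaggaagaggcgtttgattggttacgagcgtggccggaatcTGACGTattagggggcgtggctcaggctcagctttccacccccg
Mdh2: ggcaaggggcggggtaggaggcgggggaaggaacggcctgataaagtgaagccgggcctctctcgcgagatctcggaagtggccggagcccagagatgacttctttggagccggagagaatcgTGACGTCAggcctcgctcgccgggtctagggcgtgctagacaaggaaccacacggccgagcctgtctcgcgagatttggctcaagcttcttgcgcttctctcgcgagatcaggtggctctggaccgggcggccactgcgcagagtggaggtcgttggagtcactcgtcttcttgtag
Ogdh: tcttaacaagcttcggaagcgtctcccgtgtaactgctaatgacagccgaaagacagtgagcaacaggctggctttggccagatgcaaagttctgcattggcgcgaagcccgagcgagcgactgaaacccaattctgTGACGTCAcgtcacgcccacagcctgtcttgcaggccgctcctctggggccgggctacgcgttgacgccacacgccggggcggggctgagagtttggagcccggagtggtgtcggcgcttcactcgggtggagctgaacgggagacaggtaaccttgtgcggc
Cs: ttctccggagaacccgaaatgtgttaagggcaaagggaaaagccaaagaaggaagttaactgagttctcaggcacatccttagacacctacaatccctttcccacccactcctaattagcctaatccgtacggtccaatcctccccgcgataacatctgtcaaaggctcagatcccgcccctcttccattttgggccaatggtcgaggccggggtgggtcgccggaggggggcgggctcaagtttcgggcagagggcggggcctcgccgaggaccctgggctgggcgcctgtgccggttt

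The full element was found in Mdh2, from position -127, and in Ogdh, from position -113 in the window shown. The shorter TGACGT was also found in Fh1, from position 7, after the start site. Neither was found in the windows of Mdh1 and Idh2, which were called higher at both times, nor in those of Sucla2, Suclg2, Idh1 and Cs. Whether the element goes with the direction of change was not tested. Both strands were searched, and every full element contains the shorter one on each strand. In the Ogdh window a further TGACGT on the opposite strand, from position -106, overlaps the full element and is not in capitals. The full element is present for 2.03% of the 27025 genes with a window and the shorter one for 8.37%. No window of the 9 genes held TNAAGGTCA, the element of the estrogen-related receptors that act on many mitochondrial genes, and which 1.43% of genes had. The CCAAT box was found in 7 of the 9 and in 41.1% of all genes. These matches are letters in a window and were not tested as binding sites.

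Fumarase, encoded by Fh1 (Entrez 14194, chr1:175601378-175625635, minus strand), adds water to fumarate to make malate. It rose most of the 9 genes at both times. Fh1 ran from 507 to 846 CPM (median 598) in livers 4 h after IUB288, from 258 to 440.1 CPM (median 353) in livers 22 h after, and from 163 to 286 CPM (median 177) in vehicle livers. All livers at 4 h lay above all livers at 22 h and all vehicle livers. The 22 h livers overlapped with vehicle through vehicle replicate 1 alone, since the other 7 vehicle livers were at 195 CPM or less. The means were 637 ± 108 CPM at 4 h, 349 ± 57.8 CPM at 22 h and 189.5 ± 40.2 CPM in vehicle (SD, n = 8 each). Fh1 was 3.38-fold higher at 4 h than in vehicle (95% interval 2.86 to 4.00), a log2 fold change of 1.76 ± 0.12 (SE, limma-voom adjusted p = 8.96e-12). It was 1.85-fold higher at 22 h than in vehicle (1.57 to 2.18), a log2 fold change of 0.89 ± 0.12 (limma-voom adjusted p = 1.85e-06). Between the 2 times it was lower at 22 h than at 4 h by a log2 fold change of -0.87 ± 0.12 (limma-voom adjusted p = 2.55e-06). Without vehicle replicate 1 the log2 fold changes were 1.84 at 4 h and 0.98 at 22 h (limma-voom adjusted p = 3.95e-13 and 5.07e-08). The comparisons with vehicle share the same 8 vehicle livers, and the comparison of times shares livers with both.

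**Figure D2:**
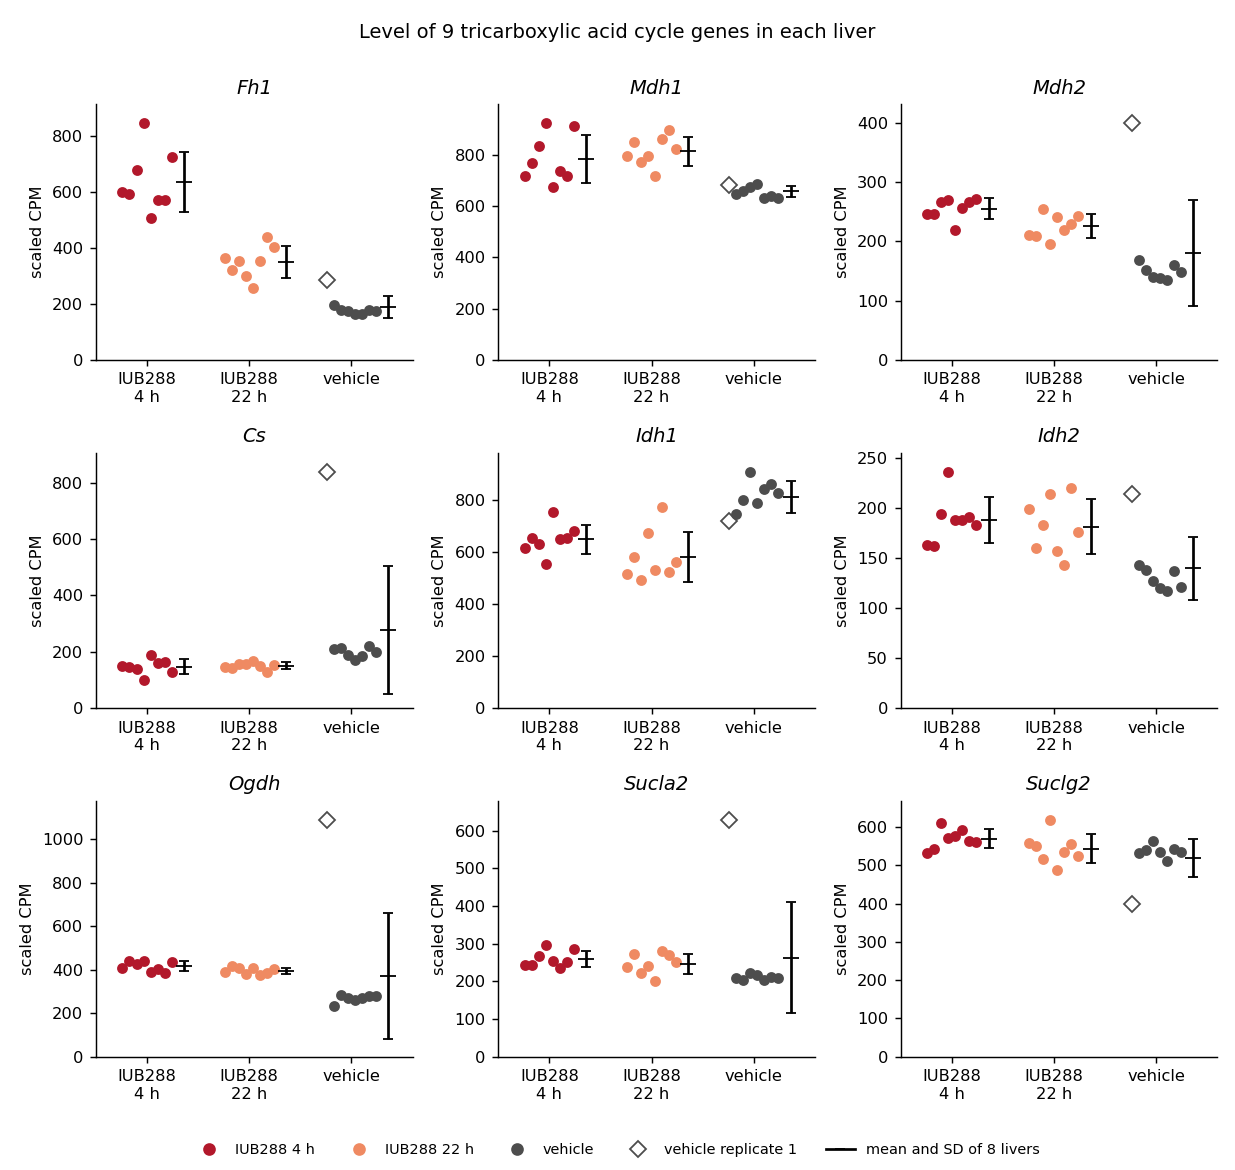
Each point is the scaled CPM of 1 liver, with IUB288 4 h left, IUB288 22 h in the middle and vehicle right in each of 9 panels, and black bars give the mean and SD of 8 livers. Open diamonds mark vehicle replicate 1, which lies far above the other vehicle livers for Mdh2, Cs, Ogdh and Sucla2, and all Fh1 points at 4 h lie above all of the other 2 groups.

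Over all 24 libraries, 4 of the 9 genes were called higher and 2 lower at 4 h than in vehicle, where 21.7% of all genes tested were called higher and 22.5% lower. At 22 h the counts were again 4 higher and 2 lower, where 17.6% of all genes were called higher and 19.2% lower. Leaving out vehicle replicate 1, the counts were 6 higher and 2 lower at 4 h, where 22.3% of 11614 genes were higher and 21.7% lower. They were 6 higher and 2 lower at 22 h, where 17.8% of genes were higher and 18.8% lower. At 22 h against 4 h none of the 9 was higher and 1 was lower, where 14.3% of genes were higher and 15% lower. With vehicle replicate 1 left out, that comparison had none higher and 2 lower, where 15.2% of genes were higher and 16.9% lower. That comparison is between IUB288 livers, but its spread was estimated from all 3 groups in 1 model. A gene was called when its limma-voom p, after Benjamini-Hochberg adjustment across every gene tested, was below 0.05. The median log2 fold change of the 9 genes was 0.25 at 4 h and 0.31 at 22 h against vehicle, and that of all genes tested was -0.07 and -0.02. For 22 h against 4 h the medians were -0.08 for the 9 genes and -0.02 for all genes.

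**Figure D3:**
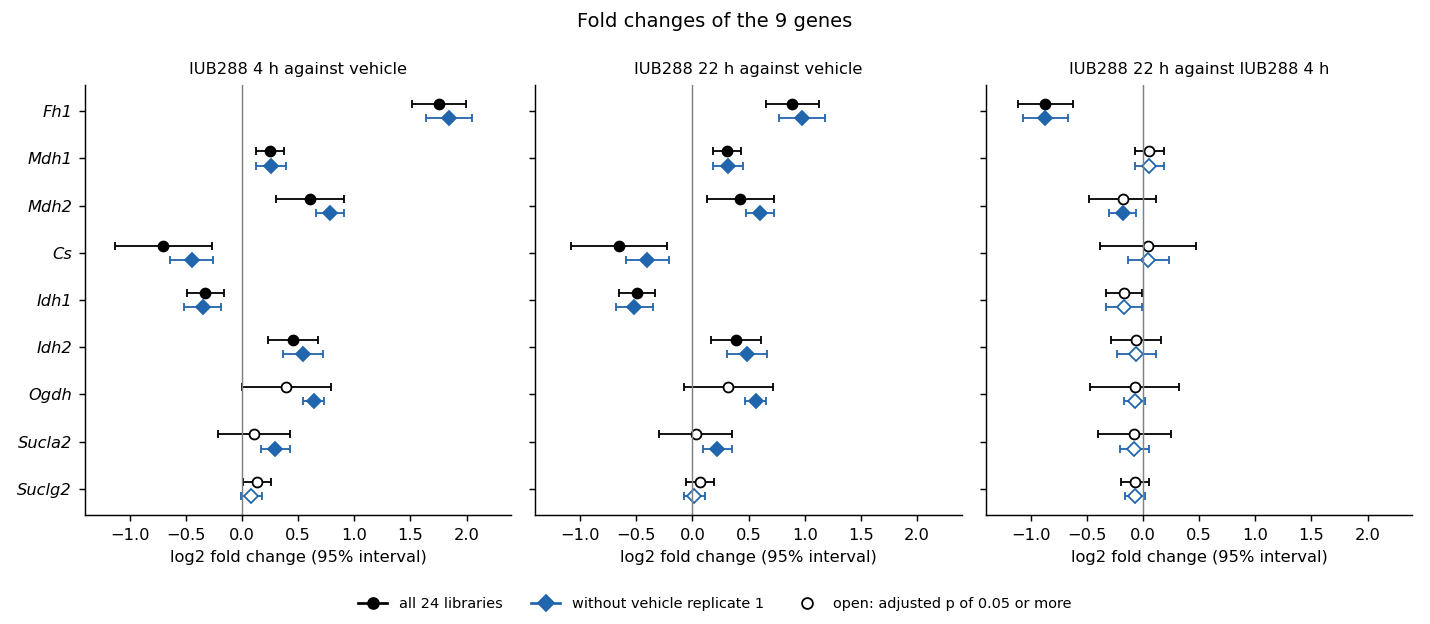
The log2 fold change of each gene is drawn with its 95% interval for IUB288 4 h against vehicle, IUB288 22 h against vehicle and 22 h against 4 h. Black circles use all 24 libraries, blue diamonds leave out vehicle replicate 1, and open symbols have an adjusted p of 0.05 or more. Ogdh and Sucla2 have filled symbols against vehicle only without vehicle replicate 1, at 0.64 and 0.30 at 4 h, and Fh1 lies farthest right at both times.

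The malate dehydrogenases turn malate into oxaloacetate. Mdh2 (Entrez 17448, chr5:135778649-135790386, plus strand) encodes the mitochondrial form, which is part of the cycle. It ran from 219 to 271 CPM (median 262) at 4 h, from 195 to 255 CPM (median 225) at 22 h, and from 134 to 399 CPM (median 151) in vehicle. Its IUB288 livers at both times overlapped with vehicle through replicate 1 alone, since no other vehicle liver was above 168 CPM. Mdh2 rose at 4 h by a log2 fold change of 0.61 ± 0.15 (SE, limma-voom adjusted p = 0.00147) and at 22 h by 0.42 ± 0.15 (adjusted p = 0.0241). Leaving out vehicle replicate 1 gave 0.78 and 0.60, with standard errors of 0.06 (limma-voom adjusted p = 2.3e-10 and 6.48e-08). The call at 22 h was lost without vehicle replicate 6, at 0.38 (limma-voom adjusted p = 0.0511), and when only the 16 libraries of that comparison were fitted, at 0.43 (adjusted p = 0.0602). Between 22 h and 4 h the log2 fold change was -0.18, with a standard error of 0.15 over all libraries, and was not called (limma-voom adjusted p = 0.383). Without vehicle replicate 1 the standard error was 0.06 and Mdh2 was called lower (limma-voom adjusted p = 0.0213). A fit of only the 16 libraries compared gave -0.17, also called (limma-voom adjusted p = 0.0433).

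Mdh1 (Entrez 17449, chr11:21556692-21571934, minus strand) encodes the cytosolic form, which works in the malate-aspartate shuttle and turns exported malate into oxaloacetate for glucose production. It ran from 674 to 922 CPM (median 750.2) at 4 h, from 716 to 895 CPM (median 808) at 22 h, and from 632 to 687 CPM (median 652) in vehicle. The 22 h livers all lay above the vehicle livers, while 1 liver at 4 h, the lowest, fell within the vehicle range. Mdh1 rose at 4 h by a log2 fold change of 0.25 ± 0.06 (SE, limma-voom adjusted p = 0.00175) and at 22 h by 0.31 ± 0.06 (adjusted p = 0.000428). Leaving out vehicle replicate 1 gave 0.26 and 0.32 (limma-voom adjusted p = 0.00171 and 0.000445). Between 22 h and 4 h the log2 fold change was 0.06 with a 95% interval of -0.07 to 0.18 (limma-voom adjusted p = 0.542). Mdh1 shares 52 exon bases with Wdpcp on the opposite strand, and whether counting used the strand is not given in the sources used here.

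Citrate synthase, encoded by Cs (Entrez 12974, chr10:128337727-128362482, plus strand), joins acetyl-CoA to oxaloacetate and opens the cycle. It ran from 101 to 189 CPM (median 148) at 4 h, from 129 to 169 CPM (median 152) at 22 h, and from 171 to 839 CPM (median 205) in vehicle. The 22 h livers all lay below the vehicle livers, also without replicate 1, while the highest liver at 4 h reached into the vehicle range. Cs fell at 4 h by 0.70 on the log2 scale, with a standard error of 0.21 (limma-voom adjusted p = 0.00853), and at 22 h by 0.65 (SE 0.21, adjusted p = 0.0165). Its log2 fold changes without vehicle replicate 1 were smaller and their errors narrower, at -0.45 ± 0.09 and -0.40 ± 0.09 (limma-voom adjusted p = 0.000308 and 0.00151). The remaining 7 vehicle livers ran from 171 to 221 CPM.

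The isocitrate dehydrogenases encoded by Idh1 and Idh2 use NADP and make 2-oxoglutarate outside the NAD-dependent step of the cycle. Idh2 (Entrez 269951, chr7:80094845-80118608, minus strand) encodes the mitochondrial form. It ran from 163 to 237 CPM (median 188) at 4 h, from 143 to 220.0 CPM (median 179.7) at 22 h, and from 117 to 214 CPM (median 132) in vehicle. In the 7 vehicle livers other than replicate 1 it was at 143 CPM or less. Idh2 rose at 4 h by a log2 fold change of 0.45 ± 0.11 (SE, limma-voom adjusted p = 0.00144) and at 22 h by 0.39 ± 0.11 (adjusted p = 0.00634). The values without vehicle replicate 1 were 0.54 and 0.48 (limma-voom adjusted p = 1.56e-05 and 0.000142).

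Idh1 (Entrez 15926, chr1:65158616-65186479, minus strand) encodes the cytosolic and peroxisomal form, a source of NADPH. It ran from 556 to 754 CPM (median 653) at 4 h, from 495 to 776 CPM (median 548) at 22 h, and from 719 to 910.15 CPM (median 815) in vehicle. The groups overlapped at both times, and vehicle replicate 1 held the lowest vehicle value. Idh1 fell at 4 h by 0.33 on the log2 scale (SE 0.08, limma-voom adjusted p = 0.0017) and at 22 h by 0.49 (SE 0.08, adjusted p = 3.61e-05), and was below the vehicle mean in all 8 livers at each time. Leaving out vehicle replicate 1 gave -0.35 and -0.52 (limma-voom adjusted p = 0.000971 and 2.4e-05). Between 22 h and 4 h the log2 fold change of -0.17 was not called (limma-voom adjusted p = 0.115), but it was called without replicate 6 of the 22 h group, at -0.23 (adjusted p = 0.0127). Cytosolic Idh1 thus fell while mitochondrial Idh2 rose.

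Ogdh (Entrez 18293, chr11:6291597-6359094, plus strand) encodes the first subunit of the 2-oxoglutarate dehydrogenase complex. It ran from 385 to 442 CPM (median 418) at 4 h, from 378 to 416 CPM (median 395) at 22 h, and from 234 to 1088 CPM (median 274) in vehicle. All 16 IUB288 livers lay above 7 of the 8 vehicle livers, which were at 283 CPM or less, and below replicate 1. Over all libraries Ogdh was not called at either time, with log2 fold changes of 0.39 ± 0.19 and 0.32 ± 0.19 (SE, limma-voom adjusted p = 0.0977 and 0.201). It was called higher at both times without vehicle replicate 1, with 0.64 ± 0.05 and 0.56 ± 0.05 (limma-voom adjusted p = 4.83e-11 and 1.61e-09).

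Sucla2 and Suclg2 encode the alternative beta subunits of succinyl-CoA synthetase, which make the enzyme form ATP or GTP. Sucla2 (Entrez 20916, chr14:73552786-73596144, plus strand), of the ATP-forming enzyme, ran from 235 to 295 CPM (median 253) at 4 h, from 199.8 to 279.8 CPM (median 246) at 22 h, and from 204 to 628 CPM (median 210.2) in vehicle. Without replicate 1 no vehicle liver was above 221 CPM, and then all livers at 4 h lay above vehicle. Over all libraries Sucla2 was not called, with log2 fold changes of 0.11 at 4 h and 0.03 at 22 h (limma-voom adjusted p = 0.605 and 0.905). Leaving that library out, it was called higher, with 0.30 ± 0.06 at 4 h and 0.22 ± 0.06 at 22 h (SE, limma-voom adjusted p = 0.000445 and 0.00851).

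Suclg2 (Entrez 20917, chr6:95473009-95718858, minus strand), of the GTP-forming enzyme, ran from 533 to 611 CPM (median 568) at 4 h, from 488 to 618 CPM (median 543) at 22 h, and from 399 to 562 CPM (median 535) in vehicle. Vehicle replicate 1 was the lowest of the 24 livers. Suclg2 was not called at either time, with log2 fold changes of 0.14 (95% interval 0.01 to 0.26) and 0.07 (-0.06 to 0.19; limma-voom adjusted p = 0.0664 and 0.405). The intervals without vehicle replicate 1 were -0.01 to 0.18 and -0.08 to 0.11. It was called at 4 h without vehicle replicate 4, at 0.15 (limma-voom adjusted p = 0.0463). Its level is uncertain, because the processed pseudogene Gm15163 matches its transcript over 1302 bases with 98.9% identity and has its own row, at 90.9 ± 3.10 CPM at 4 h, 83.9 ± 7.14 CPM at 22 h and 82.0 ± 8.98 CPM in vehicle (SD, n = 8 each).

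Levels between genes can be compared roughly per length of annotated exons, taken here as all exon bases of a gene's annotated transcripts together. Which transcripts the livers held was not examined, so the order between genes is approximate. At 4 h the level per kb was highest for Mdh1, at 305.5 ± 36.5 CPM per kb, and for Idh1, at 235 ± 20.3 CPM per kb (SD, n = 8 each). Fh1 came next, at 188 ± 31.9 CPM per kb, ahead of Suclg2 at 123 ± 5.39 CPM per kb. At 22 h Suclg2, at 118 ± 8.29 CPM per kb, and Fh1, at 103 ± 17.0 CPM per kb, differed by less than the SD of Fh1 but by more than that of Suclg2. In vehicle without replicate 1, Fh1 was at 51.8 ± 3.22 CPM per kb (n = 7). Sucla2, Idh2 and Ogdh were within 1 SD of it, at 52.8, 49.9 and 49.1 CPM per kb. Cs was the lowest of the 9 in every group, at 25.5 CPM per kb at 4 h, 26.0 at 22 h and 34.3 in the 7 vehicle livers. Fumarase thus moved up the order of levels after IUB288, while citrate synthase stayed at its end.

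Ratios of 2 genes within a library do not depend on scaling between libraries, and 5 ratios were compared in 3 comparisons, with exact two-sided permutation tests adjusted over these 15. The smallest p that 8 livers against 8 can give is 0.000155. The log2 ratio of cytosolic Idh1 to mitochondrial Idh2 averaged 1.79 ± 0.25 at 4 h, 1.68 ± 0.37 at 22 h and 2.56 ± 0.36 in vehicle (SD, n = 8 each). It was lower than in vehicle by -0.77 at 4 h (95% interval -1.11 to -0.43) and -0.88 at 22 h (-1.27 to -0.49; adjusted exact permutation p = 0.00262 for each). The differences without vehicle replicate 1 were -0.89 and -0.997, where the exact adjusted p was 0.000389 and 0.000874.

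The ratios of Fh1 to Mdh2, the next enzyme of the cycle, and to Cs were higher after IUB288. They were chosen with earlier results of these data known, and largely restate the fold changes of the single genes. The log2 ratio of Fh1 to Mdh2 averaged 1.30 ± 0.17 at 4 h, 0.62 ± 0.25 at 22 h and 0.15 ± 0.26 in vehicle (SD, n = 8 each). The differences from vehicle were 1.15 at 4 h and 0.47 at 22 h, and that of 22 h from 4 h was -0.69, where the exact adjusted p was 0.000583, 0.00262 and 0.000583. Against the other 7 vehicle livers they were 1.06 and 0.38 (adjusted exact p = 0.000389 and 0.0049). The log2 ratio of Fh1 to Cs averaged 2.12 ± 0.50 at 4 h, 1.20 ± 0.34 at 22 h and -0.35 ± 0.49 in vehicle. Its differences were 2.46 at 4 h and 1.55 at 22 h from vehicle, with no overlap of the livers, and -0.92 for 22 h from 4 h, where the exact adjusted p was 0.000583, 0.000583 and 0.000932. Against the other 7 vehicle livers they were 2.29 and 1.38.

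The ratios of the paired forms of malate dehydrogenase and succinyl-CoA synthetase turned on vehicle replicate 1. The log2 ratio of Mdh1 to Mdh2 averaged 1.61 ± 0.12 at 4 h, 1.85 ± 0.19 at 22 h and 1.97 ± 0.50 in vehicle. The differences from vehicle of -0.35 and -0.12 were not called (exact adjusted p = 0.0972 and 0.788), but without vehicle replicate 1 they were -0.52 and -0.29 and called (0.000389 and 0.00641). Between 22 h and 4 h this ratio rose by 0.24 (95% interval 0.07 to 0.41, exact adjusted p = 0.0192). It was not called among sample numbers 1 to 12 or 13 to 24 alone, with 4 livers per group and differences of 0.24 in each (exact adjusted p = 0.19 and 0.143). The log2 ratio of Sucla2 to Suclg2 differed from vehicle by -0.04 at 4 h and -0.05 at 22 h (exact adjusted p = 1.00 for each). Without vehicle replicate 1 both differences changed sign, to 0.21 and 0.20, and were called (exact adjusted p = 0.00104 and 0.00572).

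**Figure D4:**
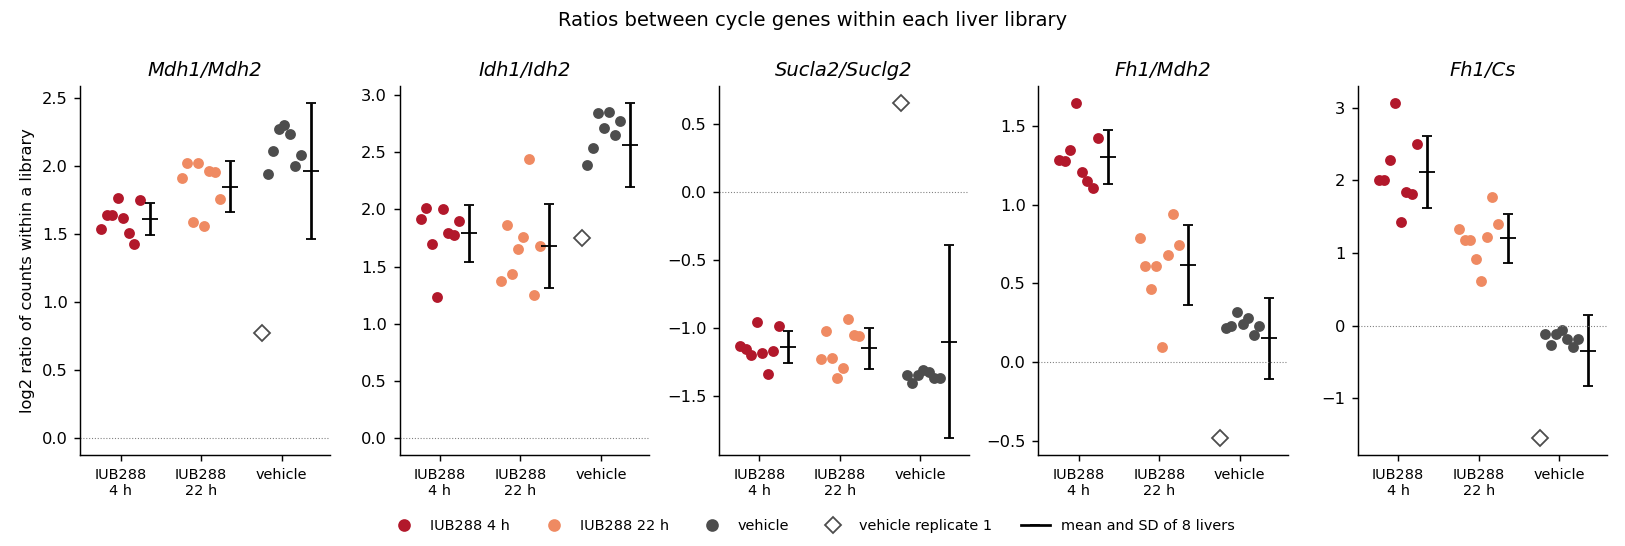
Each point is the log2 ratio of 2 genes' counts in 1 liver library, with IUB288 4 h left, IUB288 22 h in the middle and vehicle right, and black bars give the mean and SD of 8 livers. The open diamond of vehicle replicate 1 lies far from the other vehicle livers in the Mdh1/Mdh2, Sucla2/Suclg2, Fh1/Mdh2 and Fh1/Cs panels, and the 16 IUB288 livers all lie above vehicle in the Fh1/Cs panel.

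The genes whose pattern over the 24 livers was most like that of Fh1 were found by the root mean square difference of centred log2 CPM. Candidates were 6391 genes with at least 5 CPM in a group, gene models with no established name left out. The nearest were Gpat4, Csrp2, Epb41, Aass and Slc25a15, at differences of 0.218, 0.225, 0.258, 0.262 and 0.269. Aass, a lysine-degrading enzyme, averaged 1581 CPM at 4 h, 795 CPM at 22 h and 393 CPM in vehicle. Slc25a15, the mitochondrial ornithine carrier, averaged 1677 CPM at 4 h, 691 CPM at 22 h and 394 CPM in vehicle. Gpat4, a glycerol-phosphate acyltransferase, averaged 491 CPM at 4 h, 303 CPM at 22 h and 168 CPM in vehicle. Among the other cycle genes Mdh2 came nearest to Fh1, with a difference of 0.52, place 295 of 11507 genes, and Cs was farthest, with 1.10, place 8559. All these differences include vehicle replicate 1, where Cs stood 2.08 and Fh1 0.70 log2 units above the other vehicle livers. Values without that library are not given.

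Of 16 further cycle enzymes and subunits listed, 5 were in the table and 4 were tested. At 4 h and at 22 h 1 of the 4 was lower than in vehicle and none higher, where 22.5% and 19.2% of all genes were lower and 21.7% and 17.6% higher. The lower one was Aco1, the cytosolic aconitase and iron-regulatory protein, at 255 ± 12.7 CPM at 4 h, 229.9 ± 20.1 CPM at 22 h and 297 ± 23.7 CPM in vehicle (SD, n = 8 each). Its log2 fold changes were -0.21 and -0.37 (limma-voom adjusted p = 0.00431 and 2.88e-05). With vehicle replicate 1 left out, 2 were higher at 4 h, namely the Idh3b subunit of NAD-dependent isocitrate dehydrogenase and Dld, a subunit that several dehydrogenase complexes share. Their log2 fold changes were then 0.22 and 0.24 (limma-voom adjusted p = 0.000743 and 7.72e-05), against 0.05 and 0.16 over all libraries, not called (0.783 and 0.121). At 22 h Idh3b alone of the 4 was higher without that library, by 0.28 (limma-voom adjusted p = 8.63e-05). Idh3g, another subunit of that dehydrogenase, was at 275 CPM in vehicle replicate 1 and at 46.4 to 54.9 CPM in the other 7 vehicle livers. It was not called in either fit, and its sign turned between them. The log2 fold changes were -0.25 at 4 h and -0.22 at 22 h over all libraries (limma-voom adjusted p = 0.412 and 0.495). They were 0.075 and 0.10 without that library (limma-voom adjusted p = 0.234 and 0.107).

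Pyruvate enters the cycle through pyruvate dehydrogenase, which pyruvate dehydrogenase kinases switch off and phosphatases switch on, or through pyruvate carboxylase. Of 11 such genes tested, 3 were higher and 4 lower at 4 h, and none higher and 6 lower at 22 h. Of all genes 21.7% were higher and 22.5% lower at 4 h, and 17.6% and 19.2% at 22 h. Leaving out vehicle replicate 1, the counts were 3 and 4 at 4 h, and none and 5 at 22 h. Pcx, the pyruvate carboxylase that makes oxaloacetate, averaged 416 ± 18.6 CPM at 4 h, 414 ± 25.4 CPM at 22 h and 653 ± 55.4 CPM in vehicle. It fell by 0.65 on the log2 scale at 4 h and 0.66 at 22 h (limma-voom adjusted p = 4.57e-10 and 1.51e-09). Pdk1, a kinase, fell by 0.91 and 1.23 (limma-voom adjusted p = 5.79e-10 and 1.54e-11). Dlat, the acetyltransferase subunit, fell by 0.55 and 0.71 (limma-voom adjusted p = 0.00322 and 0.000487), or by 0.37 and 0.53 without vehicle replicate 1 (limma-voom adjusted p = 1.21e-05 and 1.82e-07). Pdk3, another kinase and near 1 CPM, fell by 0.70 and 0.94 (limma-voom adjusted p = 0.0206 and 0.00474). Not every kinase fell, since Pdk4, described further below, was called higher at 4 h, by 1.16 (limma-voom adjusted p = 0.0429). At 22 h Pdk4 was not called (-1.24, limma-voom adjusted p = 0.0731). Pdp2, a phosphatase, rose at 4 h by 0.58 (limma-voom adjusted p = 3.92e-05) and was at 0.16 at 22 h, not called (adjusted p = 0.228).

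**Figure D5:**
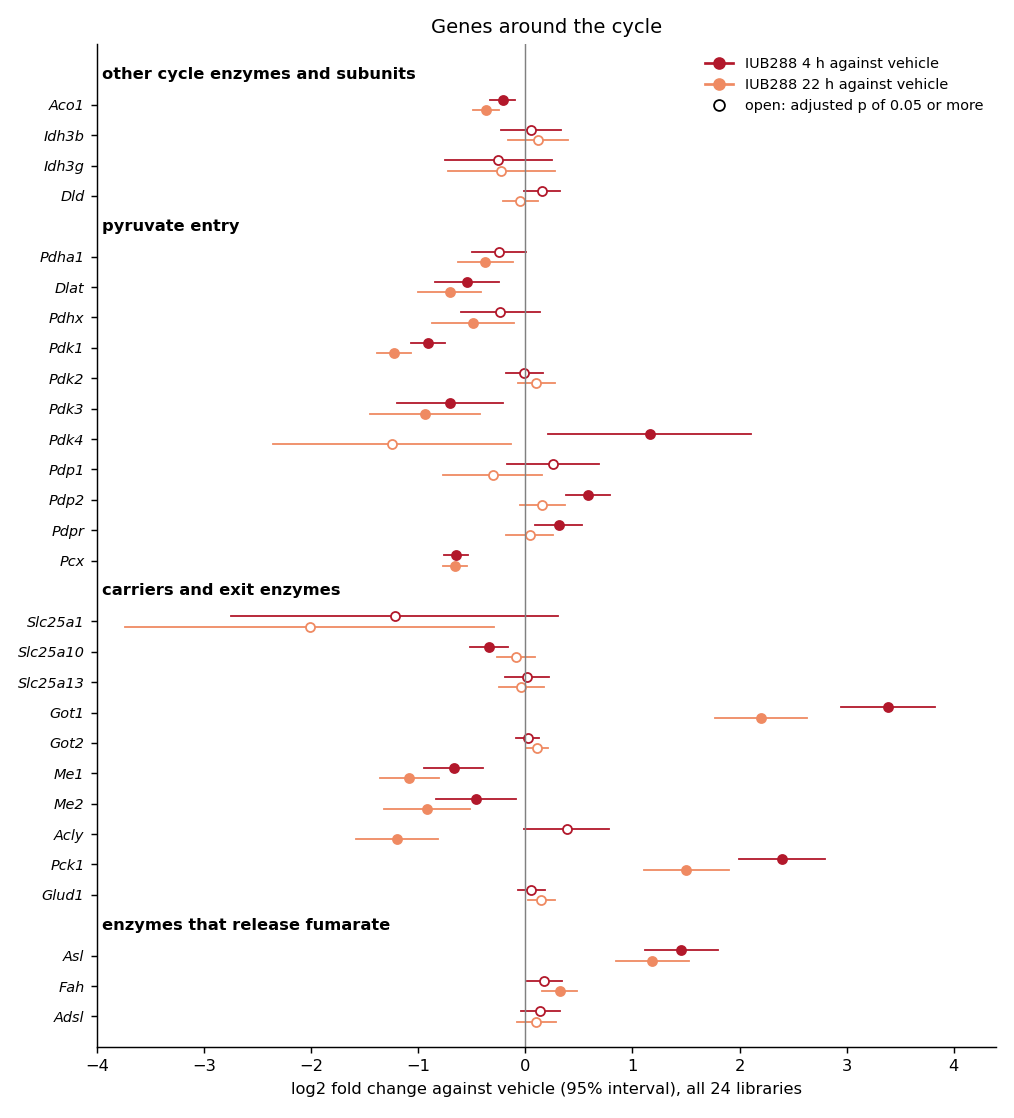
The log2 fold change against vehicle over all 24 libraries is drawn with its 95% interval for every tested gene of 4 lists, with IUB288 4 h in dark red above IUB288 22 h in orange. Open circles have an adjusted p of 0.05 or more. Got1 and Pck1 lie farthest right at both times (Got1 at 3.39 at 4 h), and Pcx and Pdk1 lie left of 0 at both times.

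Of 10 carriers and enzymes that take intermediates out of the cycle, 2 were higher and 3 lower at each time, where 21.7% of all genes were higher and 22.5% lower at 4 h, and 17.6% and 19.2% at 22 h. Without vehicle replicate 1, 3 were higher and 2 lower at 4 h, and 2 higher and 3 lower at 22 h. Over all libraries the 2 higher ones were Got1 and Pck1. Got1, the cytosolic aspartate aminotransferase of the malate-aspartate shuttle, averaged 1426 ± 467 CPM at 4 h, 641 ± 249 CPM at 22 h and 134 ± 31.0 CPM in vehicle. Pck1, which turns oxaloacetate into phosphoenolpyruvate, averaged 6819 ± 1206 CPM at 4 h, 3860.05 ± 1378 CPM at 22 h and 1317 ± 359 CPM in vehicle. Me1, the malic enzyme that makes pyruvate and NADPH from malate, fell by 0.67 at 4 h and 1.09 at 22 h (limma-voom adjusted p = 0.000237 and 9.55e-07). Slc25a10, the dicarboxylate carrier, fell by 0.34 at 4 h (limma-voom adjusted p = 0.00252) and was at -0.089 at 22 h, not called (limma-voom adjusted p = 0.447). Acly, which splits exported citrate to acetyl-CoA, had a log2 fold change of 0.39 at 4 h, not called over all libraries (limma-voom adjusted p = 0.105) and called without vehicle replicate 1 (0.50, adjusted p = 0.0227). At 22 h it fell by 1.20 (limma-voom adjusted p = 2.35e-05).

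Of 7 enzymes that release fumarate, the substrate of fumarase, 3 were in the table and tested. At 4 h 1 was higher and at 22 h 2 were, or 2 at each time without vehicle replicate 1, and none was lower. Of all genes 21.7% were higher at 4 h and 17.6% at 22 h. Asl, the argininosuccinate lyase of the urea cycle, averaged 746 ± 258 CPM at 4 h, 608 ± 174 CPM at 22 h and 261 ± 31.8 CPM in vehicle. It rose by 1.46 at 4 h and 1.19 at 22 h (limma-voom adjusted p = 9.85e-08 and 5.83e-06). Asl was not called between the times (-0.27, limma-voom adjusted p = 0.253). Fah, which ends tyrosine breakdown, was at 0.18 at 4 h, not called (limma-voom adjusted p = 0.0759), and rose by 0.32 at 22 h (adjusted p = 0.00301). Adsl, of purine synthesis, was not called at either time over all libraries (0.14 and 0.10, limma-voom adjusted p = 0.207 and 0.395), but was at 4 h without vehicle replicate 1 (0.20, adjusted p = 0.0494).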

How the data were processed

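Whole-liver RNA of 24 mice was sequenced from KAPA mRNA HyperPrep libraries, per the labels' protocols. The submitters' processing notes name cutadapt, GSNAP and the build GRCm38. Tool versions, the counting tool, its annotation and whether strand was used are not given in the sources used here. The deposited table holds the authors' whole-number counts per gene, not normalized. Each of the 536520 values was a whole number of 0 or more.

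Another count test had been planned, but a check of units did not accept the layout of the table as counts. Limma-voom (limma 3.58.1, R 4.3.3) was used in its place with the same filter and model. Genes at or above the CPM that 10 counts give at the median depth in 8 or more libraries, with a total of 15 or more, were kept, 11508 genes with 99.92% of all counts. Library sizes were scaled by TMM with trims of 30% and 5%, voom used an offset of 0.5, and 1 model held 3 group means with 21 residual degrees of freedom. P-values were adjusted for all genes tested (Benjamini-Hochberg), with a threshold of 0.05. Within groups, 84 pairs of libraries had a chi-square per degree of freedom of 20.8 to 357, and no library was a copy of another in its group. Same-numbered libraries did not deviate together (median r = -0.001 over 24 pairs, 2 of them over 0.1).

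The 9 genes and all gene lists were chosen with earlier results of these data known, and so were the ratios. A gene of one list is not reported here. Named genes were the 9, up to 4 genes with the smallest p per list and comparison with vehicle at 1 CPM or more, marker genes, and the 5 genes most like Fh1. In simulated data for 11318 genes with the group sizes of 4 h against vehicle, the test recovered 51% of genes changed 1.5-fold and 96% of those changed 2-fold. Every simulated gene had the same spread between livers, no gene of low counts was changed, and no library was made like vehicle replicate 1. These shares therefore do not give the power for single genes here. Alternatives were other scaling, filters and weights, each library left out, a replicate block and sample numbers 1 to 12 or 13 to 24 alone.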

Additional observations from a re-analysis of the deposited data

Results flagged for a closer look

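Single livers stood far from the rest of their group in 14 of the 42 sets of 8 values examined (9 genes and 5 ratios in 3 groups), by a rule that marks about 1 in 20 sets by chance, and 12 of the 14 were vehicle replicate 1. Vehicle replicate 1 was the highest vehicle liver for Fh1 at 286 CPM, with the next at 195 CPM. It was likewise highest for Mdh2 at 399 CPM (next 168), Cs at 839 CPM (next 221) and Idh2 at 214 CPM (next 143). Ogdh was at 1088 CPM there (next 283) and Sucla2 at 628 CPM (next 221). Suclg2 was lowest there at 399 CPM, with the next at 510.3 CPM.

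Among the log2 ratios, vehicle replicate 1 had the lowest Mdh1/Mdh2 at 0.77 (next 1.94), Idh1/Idh2 at 1.74 (next 2.39), Fh1/Mdh2 at -0.48 (next 0.17) and Fh1/Cs at -1.55 (next -0.29). Its Sucla2/Suclg2 was the highest at 0.66 (next -1.30). This is the library with Ucp1 at 1388 CPM and with the highest fat and muscle marker sums. Their part in these values was not tested, but the direction of each called gene and of the Idh1/Idh2, Fh1/Mdh2 and Fh1/Cs ratios was the same without it.

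Replicate 4 of the IUB288 4 h group had the highest Idh2 of its group, at 237 CPM with the next at 194 CPM, and the lowest Idh1/Idh2, at 1.23 with the next at 1.70. It also held the highest Fh1 and the lowest Cs of its group, 846 and 101 CPM. Without it the Idh1/Idh2 difference from vehicle was -0.69 (exact permutation adjusted p = 0.00321).

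The level of Fh1 in IUB288 livers was lower at 22 h than at 4 h, below the 4 h mean in 8 of 8 livers. The log2 fold change for 22 h against 4 h was -0.87 in a direct test (limma-voom adjusted p = 2.55e-06). This test compares levels in treated livers. Whether the response to the drug differed cannot be decided, since no vehicle liver was taken at 4 h.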

How the results depend on the processing

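Fh1 was called higher at both times against vehicle, and lower at 22 h than at 4 h, under every alternative run. Over single left-out libraries the number of genes called higher was 4 to 6 at 4 h and 3 to 6 at 22 h, the number called lower was 2 at each time, and between 22 h and 4 h it was 0 higher and 1 to 2 lower. The counts between 22 h and 4 h rose to 2 lower with sample quality weights, without vehicle replicate 1, without replicate 6 of the 22 h group and with only the 16 libraries compared. Sample numbers 1 to 12 alone, which include vehicle replicate 1, gave 2 higher at 4 h, and 1 higher and 1 lower at 22 h. Sample numbers 13 to 24 alone gave 0 lower at 4 h, where Cs and Idh1 were at -0.29 and -0.28 (limma-voom adjusted p = 0.0825 and 0.0758). Each of these splits has 4 livers per group. Median-of-ratios scaling and library totals moved the median of all genes by at most 0.05 log2 units and ended no call of the 9 genes. The replicate block in the linear model ended no call among the 9 genes, and as a sign-flip test of the ratios it ended that of Mdh1/Mdh2 at 22 h against 4 h (0.24, exact adjusted p = 0.0911).

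Signs turned only in values that were not called over all libraries. For Sucla2 this was so at 22 h without vehicle replicates 3, 6 and 8 (-0.0043 to 0.22 over left-out libraries) and in numbers 1 to 12 at 4 h and 22 h (-0.085 and -0.18). Between 22 h and 4 h it was so for Cs without replicate 4 of the 4 h group (-0.027 to 0.10 over left-out libraries) and in numbers 13 to 24 (-0.061), and for Idh2 and Suclg2 in numbers 1 to 12 (0.023 and 0.0019). Suclg2 at 22 h was at -0.0026 in numbers 13 to 24. Over left-out libraries Sucla2/Suclg2 ran from -0.082 to 0.21 at 4 h, -0.090 to 0.20 at 22 h and -0.038 to 0.024 between the times, and Mdh1/Mdh2 ran from -0.52 to -0.31 at 4 h and -0.29 to -0.067 at 22 h. In numbers 13 to 24 Sucla2/Suclg2 was at 0.17, 0.26 and 0.083 for 4 h, 22 h and 22 h against 4 h. There Mdh1/Mdh2 was called against vehicle (-0.58 and -0.34) but not between the times (0.24), and Fh1/Mdh2 at 22 h (0.38) and Fh1/Cs between the times (-0.64) were not called. In numbers 1 to 12 no ratio was called, and the smallest adjusted exact p was 0.0714, where 4 livers against 4 can give no p below 0.0286 before adjustment. Its values at 4 h were -0.66 for Idh1/Idh2, 1.32 for Fh1/Mdh2 and 2.85 for Fh1/Cs, and at 22 h 0.11 for Mdh1/Mdh2, -0.80 for Idh1/Idh2, 0.55 for Fh1/Mdh2 and 1.66 for Fh1/Cs. Between the times they were 0.24 for Mdh1/Mdh2, -0.77 for Fh1/Mdh2 and -1.19 for Fh1/Cs. The cause of these changes was not tested. DESeq2, planned as an alternative, was not run. Each of the 9 genes had a mean count of 4563 or more in every group.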

Other observations

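Some genes around the cycle also changed between the times after the last IUB288 injection. Among the 11 genes of pyruvate entry tested, none was higher and 3 were lower at 22 h than at 4 h, or 6 without vehicle replicate 1. Of all genes 14.3% were higher and 15% lower, or 15.2% and 16.9% without that library. Pdk4, a pyruvate dehydrogenase kinase chosen after its values were seen, averaged 19.7 ± 10.5 CPM at 22 h and 99.4 ± 30.1 CPM at 4 h (SD, n = 8 each). The livers did not overlap, and the log2 fold change was -2.40 ± 0.52 (SE, limma-voom adjusted p = 0.000867). Vehicle replicate 1 held 503 CPM of Pdk4, and the other 7 vehicle livers held 14.9 to 45.4 CPM. Against vehicle Pdk4 was called higher at 4 h, by 1.16 (limma-voom adjusted p = 0.0429), and by 1.75 without that library. At 22 h it was not called in either fit, with -1.24 over all libraries and -0.65 without vehicle replicate 1 (limma-voom adjusted p = 0.0731 and 0.0932).

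Among the 10 carriers and exit enzymes tested, 1 was higher and 4 were lower at 22 h than at 4 h, with or without vehicle replicate 1, where 14.3% of all genes were higher and 15% lower over all libraries. Acly averaged 283 ± 86.0 CPM at 22 h and 819 ± 91.8 CPM at 4 h, with no overlap (log2 fold change -1.58, limma-voom adjusted p = 3.12e-07). Got1, Pck1 and Me1 were also lower at 22 h, by -1.18, -0.89 and -0.41 (limma-voom adjusted p = 0.000143, 0.00125 and 0.0188), and Slc25a10 was higher by 0.25 (adjusted p = 0.0297).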
